A study of Mus musculus with 8 samples.

Results

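Macrophages of the colonic lamina propria that had been reconstituted from monocytes were compared with macrophages of the undisturbed colon. The reconstituted cells were measured on 1 array, and the comparison was made with each of 2 other steady-state arrays of colonic CX3CR1hi cells, resident macrophages and cells sorted as F4/80hi. A gene was taken as apart when the reconstituted array differed from both of the others by at least 2-fold (a log2 difference of 1) in the same direction, and when the brighter array of each pair was at or above its own median. By this rule 54 genes were higher and 22 lower in the reconstituted array, 76 of the 10215 genes that passed the brightness filter in both comparisons and of 19938 genes measured. A further 247 genes were 2-fold apart from only 1 of the steady-state arrays.

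All values are log2 levels from Affymetrix arrays of RNA from cells sorted by flow cytometry. All mice were C57BL/6 of the genotype Cx3cr1gfp/+, in which a green fluorescent protein replaces 1 copy of the fractalkine receptor gene and marks cells by their CX3CR1. The reconstituted and resident arrays were labelled female and the steady-state F4/80hi array male, all from colon. The 5 arrays outside the comparison came first from the colon at day 4 of colitis caused by dextran sodium sulphate, which injures the epithelium: cells sorted as CX3CR1hi F4/80hi, and CX3CR1int cells that were either Ly6Clo or Ly6Chi. The remaining arrays were Ly6Chi monocytes of the spleen at steady state and in that colitis. Those from colitis were labelled male and the steady-state splenic array female. How the macrophages were reconstituted, the age of the mice and how many gave each sample are not given in the sources used here. Each group had 1 array, so no difference has a replicate check or a test, and "higher" and "lower" describe these arrays alone. Both differences of a gene used the same reconstituted array, so a property of that array and a property of reconstituted cells cannot be told apart.

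Resident macrophages of the gut lie under the epithelium, take up bacteria and dying cells, and are known for responding little to bacterial products. In the adult colon they are largely replaced by Ly6Chi blood monocytes, which lose Ly6C and gain CX3CR1 and scavenger receptors as they mature. The genes usually read out along this path are those of macrophage identity, those of the incoming monocyte, and a set that marks macrophages long settled in a tissue.

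Macrophage identity genes were bright and alike on the 3 arrays. Their median level was 11.7 in the reconstituted, 11.7 in the resident and 11.6 in the F4/80hi array. In the splenic monocyte arrays it was 10.6 at steady state and 10.2 in colitis. Of 18 macrophage identity genes measured, 18 lay within 2-fold of both steady-state arrays, with median differences of 0.02 from resident and -0.09 from F4/80hi. Cx3cr1, the fractalkine receptor gene, stood at 10.88 in the reconstituted, 11.21 in the resident and 11.34 in the F4/80hi array. Adgre1, which encodes the surface protein used to sort F4/80hi cells, stood at 12.05, 12.33 and 12.52 in the same order, and the complement gene C1qa at 11.96, 11.93 and 12.07. Over all genes past the filters the median difference was -0.04 from resident and 0.09 from F4/80hi. The labels of sex held for these 3 arrays: Xist, the RNA of the inactive X chromosome, was at 12.28, 12.17 and 4.63, and the Y-linked gene Eif2s3y at 4.34, 4.36 and 9.78. The steady-state splenic array, labelled female, carried both Xist (10.04) and Eif2s3y (10.28) and so went against its label.

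RNA of other cell types was present in the sorted colonic cells. The median level of 17 epithelial markers, genes of the keratins, mucins and transporters of the gut lining, was 11.23 in the reconstituted, 12.20 in the resident and 11.44 in the F4/80hi array, against 5.02 and 5.88 in the splenic arrays. In the colonic arrays these medians were close to those of the macrophage identity genes, and in the resident array above them. Krt8, an epithelial keratin, stood at 12.73 in the reconstituted array. Differences of these markers had a median of -0.43 from resident and 0.28 from F4/80hi, and none was 2-fold apart from both. In sorted populations of this kind, fewer cells of a type and less RNA per cell cannot be told apart.

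Of the genes past the filter, 0.675% were 2-fold higher and 1.09% lower in the reconstituted than in the resident array. Against the F4/80hi array the shares were 1.54% higher and 0.551% lower. The 54 genes higher than both made up 0.529% of the genes past both filters, and the 22 lower genes 0.215%. No gene was 2-fold higher than 1 steady-state array and 2-fold lower than the other. Over all genes past the filter, the differences of the reconstituted array had an SD of 0.361 from resident and 0.384 from F4/80hi, and those between the resident and F4/80hi arrays an SD of 0.396. The last pair had 349 genes 2-fold higher in resident and 29 lower, more in all than the reconstituted array had from either (70 and 113 from resident, 159 and 57 from F4/80hi). Labelled sex differs in that pair and equally between the reconstituted and F4/80hi arrays. The F4/80hi arrays of steady state and colitis, both male, had an SD of 0.316.

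**Figure D1:**
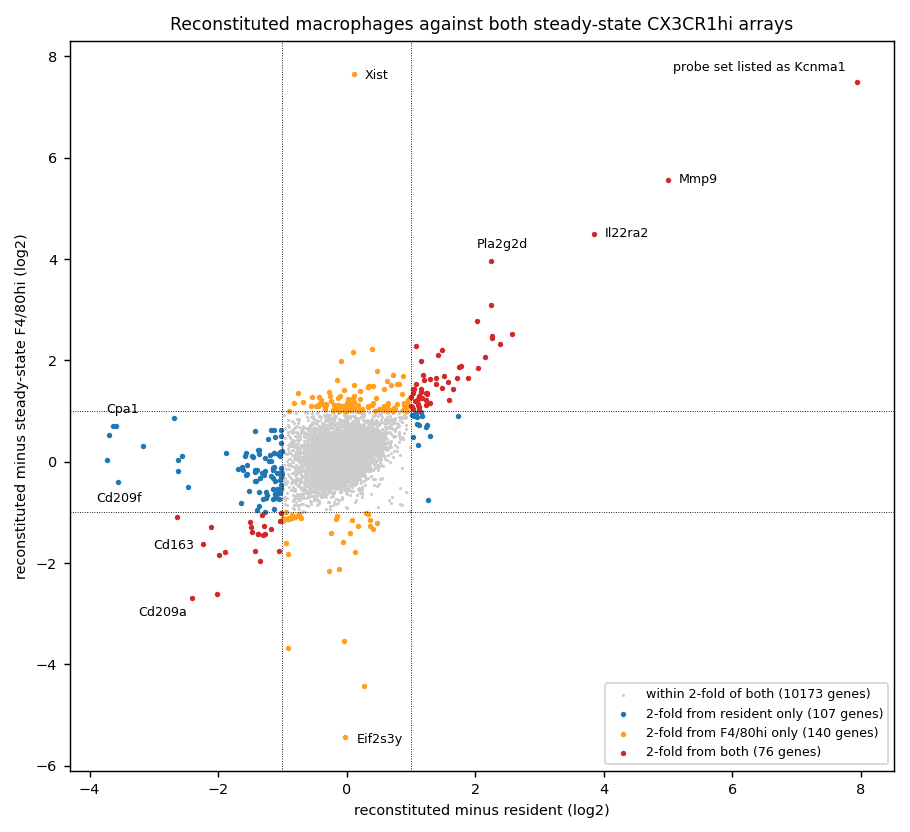
Each point is a gene past the brightness filter in either comparison or in both. The x axis is the log2 difference of the reconstituted from the resident array. The y axis is that from the steady-state F4/80hi array, with dotted lines at 2-fold. The probe set listed as Kcnma1, Mmp9, Il22ra2 and Pla2g2d lie farthest to the upper right, Cd209a lies at the lower left, and Xist and Eif2s3y lie on the vertical axis, apart from the male F4/80hi array only.

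The 54 higher genes ranged in size more widely than the 22 lower ones. Taking for each gene the smaller of its 2 differences, 11 higher genes were at least 4-fold and 3 at least 8-fold apart, whereas 2 lower genes were at least 4-fold and 0 at least 8-fold apart. The gap between the resident and F4/80hi arrays had a median of 0.18 for the higher and 0.19 for the lower genes. Over all genes past the filter in that pair it was 0.19, so the chosen genes were like the rest in this. Many of the 76 were dim genes: 23 of the 54 and 6 of the 22 reached a level of 8 in none of the 3 arrays. In 27 of the 54 higher and 19 of the 22 lower genes all 3 arrays were at or above their medians, and the others passed the filter only through the brighter array.

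The same rule was applied with each of the other arrays in the place of the reconstituted one. The resident array had 57 genes higher and 1 lower than both others, of 10264 past the filter. The F4/80hi array had 18 higher and 60 lower, of 10225. Having genes apart from both others was thus not particular to the reconstituted array. The genes at the top differed in kind: enzymes of the exocrine pancreas such as Cpb1 and Cpa1 led in the resident array, and Eif2s3y, Kdm5d and Uty, which lie on the Y chromosome, led in the F4/80hi array.

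**Figure D2:**
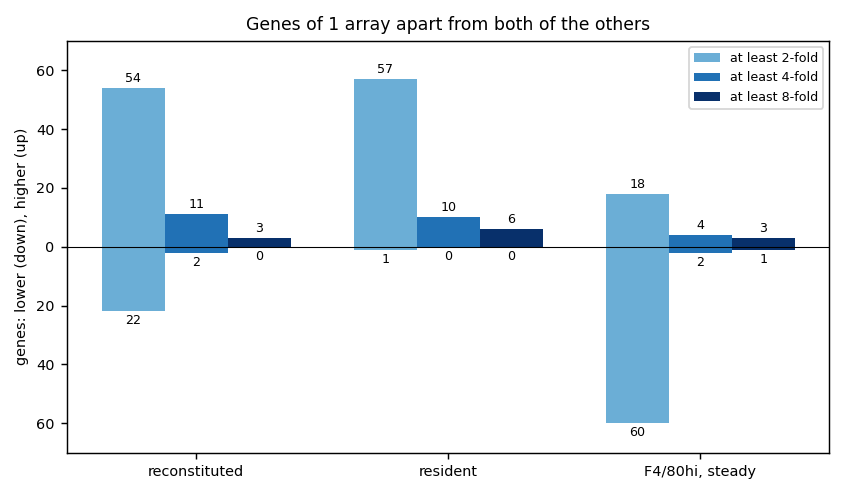
Bars count the genes of each steady-state colonic array that were at least 2-, 4- or 8-fold higher (upward) or lower (downward) than both of the other arrays. The reconstituted array had 54 genes higher and 22 lower, the resident array 57 and 1, and the F4/80hi array 18 and 60.

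Among genes of matrix breakdown, Mmp9 had by far the largest difference, and 2 others were higher by less. Mmp9 encodes gelatinase B, a secreted protease that cuts denatured collagen and basement membrane. Its level was 11.88 in the reconstituted array, 6.88 in the resident and 6.32 in the F4/80hi array, which is 32.0-fold and 47.4-fold higher. In the 5 remaining arrays it lay between 5.24 and 7.04, so the reconstituted array stood alone. Adamdec1, a metalloprotease-like gene typical of gut macrophages, was at 12.02 against 10.63 and 10.37. Mmp12, the macrophage elastase that degrades elastin, was at 10.55 against 9.52 and 9.50, close to the 2-fold limit, and its difference from F4/80hi fell under it, to 0.992, when quantile normalization was repeated. Both were also higher in the reconstituted array than in every array outside the comparison, where Adamdec1 reached 10.88 and Mmp12 reached 9.47. Of the 16 matrix protease and inhibitor genes past both filters, these 3 were higher than both, 0 were lower than both, and the list's medians were 0.02 and -0.02. Mmp2, Mmp13 and Mmp14, other matrix metalloproteases, were within 2-fold, with Mmp13 at 11.92, 11.57 and 11.82. Adam8 (differences of 0.59 and 1.11) and Plaur, the urokinase receptor gene (0.72 and 1.00), were 2-fold above F4/80hi only.

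Mmp9 is also abundant in neutrophils, and the list of neutrophil markers was read beside it. Of 13 measured, 4 were at or above the array median in the reconstituted array, 3 in the resident and 3 in the F4/80hi array, and the median level of the list was 4.91, 4.65 and 4.88. The 4 markers past both filters, of which Mmp9 and Retnlg were higher than both arrays, had median differences of 0.50 and 1.06. S100a8 and S100a9, the most abundant neutrophil transcripts, were at 5.25 and 4.91 in the reconstituted array and below its median. Retnlg, a resistin-like gene of neutrophils, was at 6.29 against 5.22 and 5.09 and was among the higher genes, while Csf3r, the granulocyte colony-stimulating factor receptor, was at 9.14 against 9.21 and 9.47. Ly6g was at 8.32, between the resident (9.30) and F4/80hi (7.39) arrays.

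The largest difference of all belonged to a probe set that the platform annotation lists as Kcnma1, the gene of a calcium-activated potassium channel. It read 12.13 in the reconstituted array, 4.19 in the resident and 4.63 in the F4/80hi array, and between 4.35 and 4.62 in the 5 others. That is a log2 difference of 7.94 and 7.5, with 7 of 8 arrays at a dim level. The array carries a second probe set listed as Kcnma1, and it gave another answer. The second one lists 17 RefSeq transcripts, all of them of the gene, and read 5.42 in the reconstituted, 5.61 in the resident and 5.22 in the F4/80hi array. The bright one lists 4 accessions and 0 RefSeq transcripts. Which RNA the bright probe set detected was not tested, and its value is not given here as a level of the channel.

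**Figure D3:**
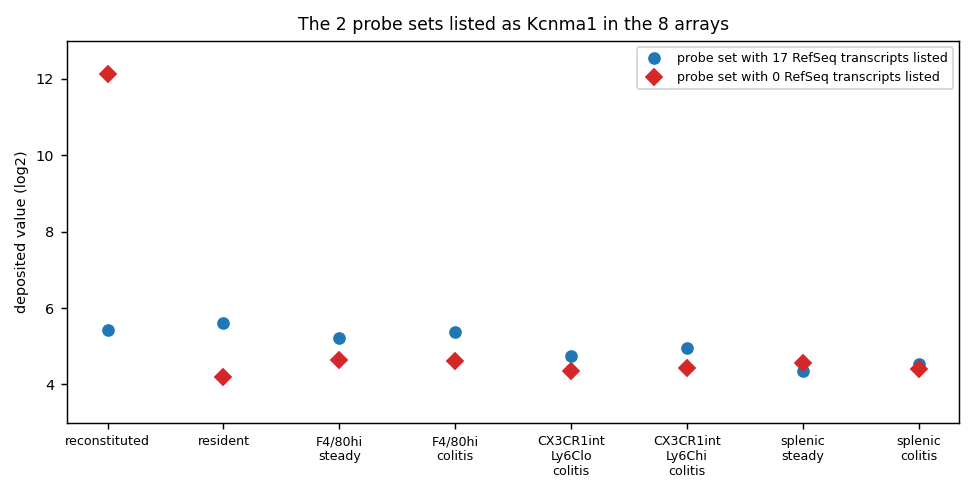
Deposited log2 values in the 8 arrays of the 2 probe sets listed as Kcnma1, red diamonds for the one with 0 RefSeq transcripts and blue circles for the one with 17. The red point of the reconstituted array is at 12.13 and the other 7 red points lie between 4.19 and 4.63; the blue points of the 3 steady-state colonic arrays lie between 5.22 and 5.61.

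Of the 20 ion channel genes past both filters, the probe set listed as Kcnma1 and Trpm2 were higher than both arrays and 0 were lower. Trpm2, a calcium-permeable channel opened by oxidative stress, was at 9.56 against 8.33 and 8.34, and lay between 7.25 and 8.80 elsewhere. Hvcn1, the proton channel that serves the oxidative burst, had differences of 0.67 and 0.90. Over the 8 arrays, the genes whose levels followed the bright Kcnma1 probe set most closely, of 10214 ranked, were Defa24 (Pearson r of 0.997), Mfge8 (0.981) and Chst2 (0.979). These correlations rest on the reconstituted array standing apart from 7 others and are a description only.

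Among cytokine and receptor genes, Il22ra2 stood out. It encodes a soluble receptor that binds interleukin 22, a cytokine that drives repair of the epithelium, and keeps it from its receptor on epithelial cells. It was at 9.16 in the reconstituted array against 5.32 and 4.66, a 14.3-fold and 22.7-fold difference. Of the other arrays, the colitis Ly6Clo array was at 8.34 and the remaining 4 lay between 4.52 and 4.83. Il22ra1, the signalling receptor chain, was at 7.68, 8.21 and 7.16. Of the 9 genes of the interleukin 22 and 10 family past both filters, Il22ra2 was the only one 2-fold from both, and the list's medians were 0.01 and -0.07. Il10, a cytokine that restrains macrophages, was at 9.92 against 11.01 and 10.56, and so 2-fold below resident only.

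Il1a, an alarm cytokine released by damaged and activated cells, was at 11.64 against 10.60 and 10.21. Its partner Il1b was not apart, at 12.62, 12.72 and 12.76. Tnf was at 9.44, 10.21 and 10.07, within 2-fold. Of 9 inflammatory mediators past both filters, Il1a was the only one apart from both. Il1a was bright in all colonic arrays, from 8.24 to 11.64, and dim in the splenic ones, at 4.59 and 4.93.

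Chemokine genes went both ways. Of 19 past both filters, Ccl17, Ppbp and Ccl24 were higher than both arrays, and Ccl5 and Ccl8 were lower. Ccl17, which draws T cells through CCR4 and is typical of dendritic cells, was at 6.65 against 5.16 and 5.19, and far higher, at 10.88, in the colitis Ly6Clo array. Ccl24, an eotaxin, was dim throughout, at 6.68 against 5.51 and 5.42. Ppbp, a platelet chemokine also made by myeloid cells, was at 9.16 against 7.91 and 7.82.

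On the lower side, Ccl8, a ligand of CCR2 and related receptors made by settled macrophages, was at 10.50 against 11.78 and 11.78. The colitis F4/80hi array had it at 12.27, and the CX3CR1int and splenic arrays were between 4.55 and 7.27, so the reconstituted array lay between the CX3CR1hi cells and the monocytes. Ccl5, which attracts T cells, was at 8.03 against 9.50 and 9.41, the lowest of all 8 arrays. The inflammatory chemokines Ccl3 and Cxcl2 were unlike these, with differences between -0.14 and 0.06. Cxcl13, which draws B cells, was at 10.54, 10.45 and 8.37, and so apart from F4/80hi only.

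Platelet markers were read beside Ppbp and Clec1b. Clec1b encodes CLEC-2, a receptor of platelets and some myeloid cells that binds podoplanin, and was at 7.53 against 5.14 and 5.20 and between 4.85 and 5.54 elsewhere. Of 7 platelet and megakaryocyte markers measured, 3 were at or above the median in the reconstituted array and 2 in each of the others. Pf4 was bright in all 3, at 11.59, 11.61 and 11.72, whereas the integrin gene Itga2b and the glycoprotein gene Gp9 were below the median in all 3, at 4.87 and 4.89 in the reconstituted array.

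Several higher genes encode receptors of the myeloid surface. Cd300lf, an inhibitory receptor that binds lipids of dying cells, was at 7.94 against 5.90 and 6.09. It was higher still in the colitis Ly6Clo and Ly6Chi arrays, at 8.70 and 10.09, and in the splenic ones, at 8.58 and 8.74. Its relative Cd300lb, an activating receptor of the same gene cluster, was at 6.61 against 7.65 and 7.77, lower than both, but its difference from resident was -0.994 after repeated quantile normalization, which ends the call. Treml4, which amplifies signals of nucleic acid sensors, was at 9.51 against 7.85 and 8.06 and reached 11.34 in splenic monocytes. Adgrl3, a latrophilin adhesion receptor known from neurons, was at 9.21 against 6.94 and 6.73, with no other array above 6.25. Gpm6b, a membrane glycoprotein of neurons and other cells, was at 8.27 against 6.02 and 5.18. Adam23, a membrane protein that binds integrins, was at 8.16 against 6.14 and 5.38 and reached 9.25 in the colitis Ly6Clo array. Lrp8, a reelin and apolipoprotein E receptor, was at 7.64 against 6.16 and 5.43.

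Genes for the handling of dying cells and of lipids were partly among these. Mfge8 encodes a bridge between phosphatidylserine on dying cells and integrins of the phagocyte, and was at 9.40 against 7.62 and 7.51. All 7 other arrays lay between 7.51 and 7.85, so its high level was seen in the reconstituted array alone. Of the 14 apoptotic cell clearance genes past both filters, Mfge8 and Cd300lf were higher than both arrays and 0 lower. Mertk and Axl, receptor kinases for dying cells, had differences of 0.44 and 0.16 and of 0.19 and 0.10. Pros1, a ligand of these kinases, was lower than F4/80hi only, with differences of -0.90 and -1.11.

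Nr1h3 encodes LXR alpha, the nuclear receptor that senses oxidised cholesterol, and was at 8.70 against 7.58 and 7.40, the highest of the 8 arrays. Its target genes Abca1 (differences of -0.04 and 0.00) and Abcg1 (0.57 and 0.18) were within 2-fold. It was the only one of 17 lipid handling genes past both filters to be 2-fold from both arrays.

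Phospholipases were found in both directions. Pla2g2d encodes a secreted phospholipase of lymphoid and myeloid cells that releases lipid mediators, and was at 10.65 against 8.40 and 6.68. Here the resident and F4/80hi arrays themselves differed by 1.72, the widest gap among the higher genes, and the colitis F4/80hi array was at 9.26. Pla2g2a, another secreted phospholipase and outside the rule for naming, was also higher than both, with differences of 1.43 and 2.11. Its level was the highest of all 8 arrays. Pla2g4c, a cytosolic phospholipase, was at 6.82 against 8.84 and 9.44, while the colitis F4/80hi array was at 6.14. Pla2g4c was the only lower gene that was not lower than in the colitis F4/80hi array. Ptgs2, which encodes cyclooxygenase 2, was at 12.24, 12.24 and 11.83. Of the 14 prostaglandin and leukotriene genes past both filters, Pla2g4c was the only one 2-fold from both.

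Lyz1 and Defa24 encode antimicrobial proteins of Paneth cells of the small intestine, and Lyz1 is also read in myeloid cells. Lyz1 was at 11.50 against 9.62 and 9.84, and between 8.38 and 10.48 elsewhere. Lyz2, the lysozyme gene of macrophages, was at 13.19, 13.06 and 13.19. The 2 lysozyme genes are near-identical copies, so the array may not keep their RNA fully apart. Defa24, an alpha-defensin gene of a family of near-identical copies, was at 6.96 against 4.39 and 4.44, and no other array exceeded 4.38. Defa39, of the same family, was at 5.81 against 4.79 and 4.88, and so 2-fold above resident only. Of the 4 Paneth cell markers measured, Mmp7 was dim in all 3 arrays, at 4.64, 4.51 and 4.67, and Ang4 was lower, at 6.83 against 8.19 and 7.69. Whether cells other than macrophages supplied the RNA of Lyz1 and Defa24 was not tested.

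Of the monocyte list, 2 genes were higher than both arrays. S100a4, a calcium-binding protein of motile cells, was at 6.36 against 4.77 and 5.14, while the CX3CR1int and splenic arrays stood between 10.26 and 10.75. The reconstituted level was thus above the resident one and far below that of monocytes. Lyz1 was the other. Of 14 monocyte identity genes past both filters, 0 were lower than both, and the list's medians were 0.18 and 0.13. Ccr2, the receptor by which monocytes leave the marrow, was at 9.86, 10.12 and 10.79, and F13a1, the clotting factor XIII gene of monocytes, at 9.64, 10.34 and 10.16, neither of them higher in the reconstituted array.

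The remaining higher genes named by rule have less common ties to macrophages. Chst2, a sulphotransferase that builds sugar ligands of selectins, was at 8.02 against 5.76 and 5.59. Cst7 encodes cystatin F, an inhibitor of lysosomal cathepsins, and was at 7.24 against 5.08 and 5.17, below the 7.53 of the colitis Ly6Clo array. Zfp366, a transcription factor gene of dendritic cells, was at 7.02 against 5.45 and 5.45 and reached 9.94 in the colitis Ly6Clo array. H2-Eb2, a class II gene, was at 6.38 against 5.27 and 5.14 and reached 9.76 in the same colitis array. Ceacam16 (6.69 against 4.95 and 4.81), the chloride transporter gene Slc12a5 (6.72 against 5.00 and 5.08) and Trim29 (6.22 against 4.70 and 4.53) were dim in every other array, none of which passed 5.45.

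**Figure D4:**
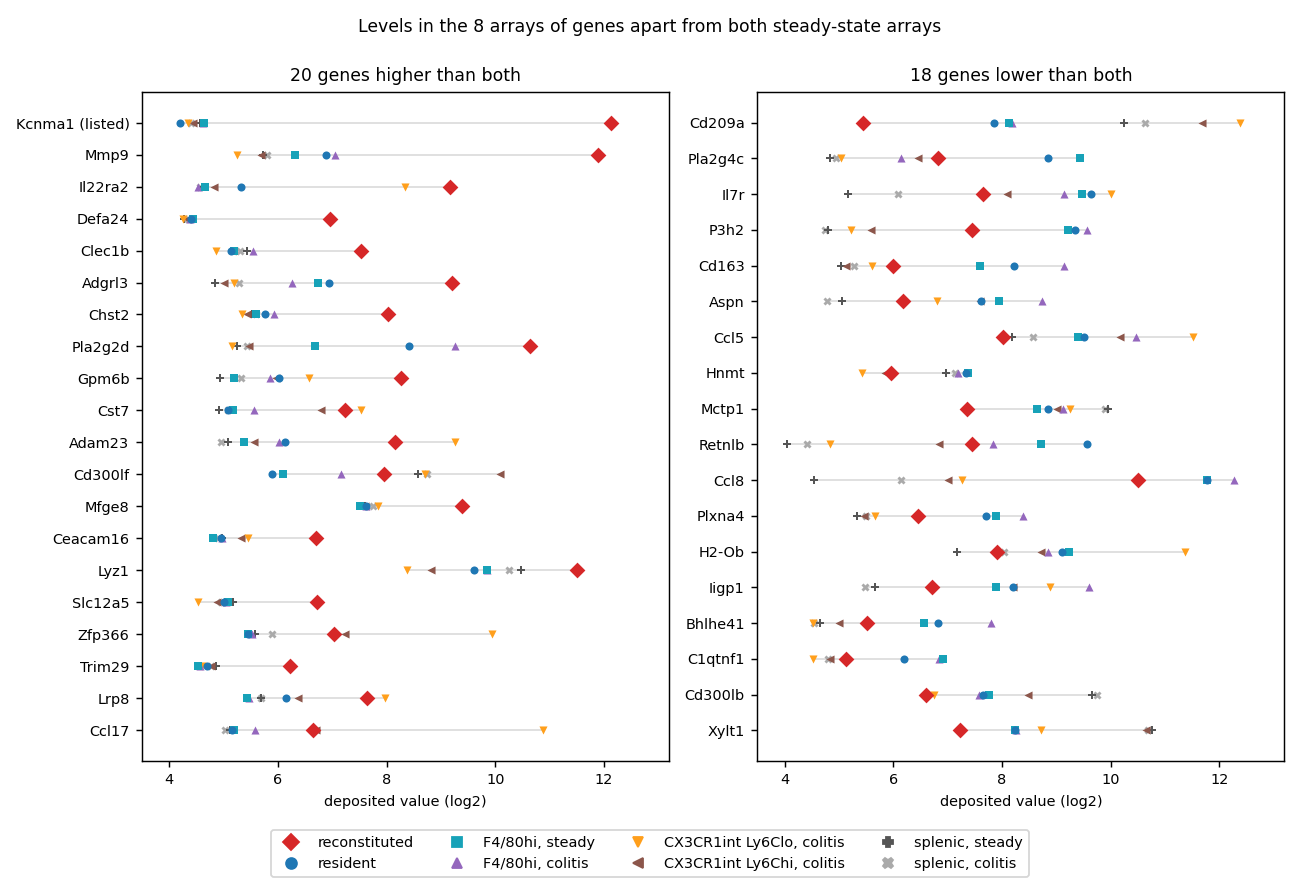
Deposited log2 levels in all 8 arrays of the 20 higher genes with the largest differences (left) and of 18 lower genes (right), with antibody segments and predicted genes left out on the right; the red diamond is the reconstituted array. On the left the red diamond lies farthest right for most genes, with Ccl17, Zfp366, Adam23 and Cd300lf among the exceptions; on the right it lies between the CX3CR1hi cells and the lowest arrays for most genes.

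The other 24 higher genes fell outside the rule for naming, except Bub1b and Cyyr1, which it named as nearest the 2-fold limit. The ones given with levels here were chosen after their values were seen. All 24 had a smaller difference between 1.00 and 1.43. Trem1, a receptor that amplifies inflammation and a near neighbour of Treml4 in the genome, was at 6.64 against 5.41 and 5.28 and reached 10.92 in the colitis Ly6Chi array. Slc7a11, the cystine importer that supplies glutathione, was at 9.36 against 8.21 and 7.38. Ly6i and Pram1, both bright in monocytes, were at 7.21 and 6.49, against at most 6.16 and 5.34 in the steady-state CX3CR1hi arrays and at least 10.71 and 8.51 in the splenic ones. Asb2, a ubiquitin ligase part, was at 10.52 against 9.28 and 9.40, and Ocstamp, a gene of cell fusion in osteoclasts, at 10.05 against 8.94 and 8.93. For 2 genes the choice of probe set decided the call: the other probe sets of Sec61b gave differences of 0.66 to 0.99, and that of Tmem154 gave 0.23 and 0.14. The 2 antibody segments Igkv6-20 and Ighg3 lie in families of near-identical copies and are uncertain.

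The promoter windows of 4 of the 76 genes are shown to give the sequence beside the values, with motif matches in capitals. The 4 were picked by name and not by a rule, so they do not stand for the 76. They run from 250 bases before to 50 after a gene's start in RefSeq, build GRCm38.p6, and 50 of the 76 genes had such a window. The 26 without one included Mmp9 and Il22ra2. On the higher side Mmp12, S100a4 and Cst7 each held 2 matches in a window. The matches are to the PU.1 motif GAGGAAGT, the AP-1 motif TGANTCA, the C/EBP motif TTGCNNAA and the TATA box TATAAA, read on both strands, where N is any base, so that the capitals hold a motif or its reverse complement. In Cst7 the AP-1 and C/EBP matches overlap. Mmp12 has 2 windows, for 2 annotated starts.
Mmp12 promoter window (chr9:7344147-7344446, + strand): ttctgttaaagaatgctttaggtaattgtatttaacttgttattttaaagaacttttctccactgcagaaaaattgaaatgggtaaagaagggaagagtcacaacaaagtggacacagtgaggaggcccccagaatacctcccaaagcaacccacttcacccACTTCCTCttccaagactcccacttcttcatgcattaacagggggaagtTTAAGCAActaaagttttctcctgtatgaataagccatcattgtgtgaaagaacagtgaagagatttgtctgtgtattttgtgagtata
Mmp12 promoter window (chr9:7347124-7347423, + strand): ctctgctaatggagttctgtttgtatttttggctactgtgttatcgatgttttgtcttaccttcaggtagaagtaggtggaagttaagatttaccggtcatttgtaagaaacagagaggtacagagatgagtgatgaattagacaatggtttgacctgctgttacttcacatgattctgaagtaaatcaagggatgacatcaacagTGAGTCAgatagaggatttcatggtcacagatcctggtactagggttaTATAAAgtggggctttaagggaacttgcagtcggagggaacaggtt
S100a4 promoter window (chr3:90603520-90603819, + strand): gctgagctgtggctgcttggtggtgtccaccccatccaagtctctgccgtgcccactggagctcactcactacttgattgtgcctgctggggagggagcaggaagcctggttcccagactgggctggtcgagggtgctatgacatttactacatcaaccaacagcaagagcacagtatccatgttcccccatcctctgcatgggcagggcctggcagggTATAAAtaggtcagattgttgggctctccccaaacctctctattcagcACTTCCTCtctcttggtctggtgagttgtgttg
Cst7 promoter window (chr2:150570165-150570464, + strand): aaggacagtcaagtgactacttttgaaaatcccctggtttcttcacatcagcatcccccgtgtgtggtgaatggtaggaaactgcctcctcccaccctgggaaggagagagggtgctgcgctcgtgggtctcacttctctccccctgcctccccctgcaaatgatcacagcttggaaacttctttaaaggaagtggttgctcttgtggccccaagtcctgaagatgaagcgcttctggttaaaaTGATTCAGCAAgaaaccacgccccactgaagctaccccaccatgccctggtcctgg
In the first Mmp12 window the capitals are PU.1 and C/EBP, in the second AP-1 and the TATA box, and in S100a4 the TATA box and PU.1.

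Over the 50 windows of 38 higher genes, the PU.1 motif was in 4 (8.0%), against 3.2% of all 32851 windows. AP-1 was in 8 (16%) against 7.81%, C/EBP in 6 (12%) against 10.8%, and the TATA box in 11 (22.0%) against 13.6%. An interferon element, GAAA repeated after any 2 bases, was in 2 (4.0%) against 3.44%, and an NF-kB motif, GGGAC followed directly by TTTCC, in 0 against 0.155%. A match describes letters and not binding of a factor. Over the 10741 windows of measured genes past a filter the shares were 3.35% for PU.1, 5.44% for AP-1, 8.56% for C/EBP and 7.7% for the TATA box. Over the 13 windows of 12 lower genes, PU.1 was in 0, AP-1 and C/EBP in 1 each (7.69%), and the TATA box in 5 (38.5%).

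Among the lower genes, Cd209a had the largest difference from both arrays. Cd209a, a lectin of the DC-SIGN family that binds sugars of microbes, was at 5.45 against 7.86 and 8.14, a 5.29-fold and 6.42-fold lower level. It was the lowest of the 8 arrays, and the colitis CX3CR1int arrays, at 12.38 and 11.69, and the splenic ones, at 10.24 and 10.64, were the highest. Monocytes thus had more Cd209a RNA than any CX3CR1hi array, and the reconstituted array was the farthest from them. Its window holds 1 match, the TATA box on the other strand.
Cd209a promoter window (chr8:3748935-3749234, - strand): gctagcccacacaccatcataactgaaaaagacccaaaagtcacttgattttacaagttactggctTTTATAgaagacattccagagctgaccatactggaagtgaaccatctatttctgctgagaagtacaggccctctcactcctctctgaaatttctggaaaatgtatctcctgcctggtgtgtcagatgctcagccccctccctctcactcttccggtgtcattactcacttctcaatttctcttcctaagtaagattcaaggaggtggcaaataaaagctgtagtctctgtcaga
Of 17 C-type lectin genes past both filters, Clec1b was higher and Cd209a lower than both arrays, and the medians were -0.04 and -0.05. Clec7a, which encodes the beta-glucan receptor dectin-1, was at 12.08, 11.59 and 11.65. Other members of the Cd209 family were dim in the reconstituted array, with Cd209f at 4.93 against 8.48 and 5.33, and Cd209e at 4.79 against 5.73 and 6.39.

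Cd163 encodes the scavenger receptor for haemoglobin bound to haptoglobin. It was at 5.99 in the reconstituted array against 8.22 and 7.60, and at 9.14 in the colitis F4/80hi array. The CX3CR1int and splenic arrays lay between 5.03 and 5.60, so the reconstituted level was nearer to theirs than to those of the CX3CR1hi arrays. Of 15 genes of long-lived tissue macrophages past both filters, Cd163 and Ccl8 were lower than both arrays and 0 were higher, with medians of -0.31 and -0.13. Igf1, a growth factor gene, was at 9.17 against 10.16 and 10.33, just outside the 2-fold limit. Cbr2, a carbonyl reductase (8.98 against 10.63 and 9.79), and Lyve1, a hyaluronan receptor (7.83 against 9.08 and 8.55), were lower than resident only.

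Other genes of the same list were not lower. Timd4, a receptor for dying cells often used to mark self-renewing gut macrophages, was at 8.08, 7.93 and 7.31. Mrc1, the mannose receptor, was at 11.85, 12.27 and 12.35. Fcna, a ficolin, was at 6.96 against 6.14 and 5.42 and thus higher than F4/80hi only. Haem handling genes other than Cd163 were within 2-fold of at least 1 array, with the haem oxygenase gene Hmox1 at 10.47, 9.87 and 10.18.

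The further lower genes have varied roles. Il7r, the interleukin 7 receptor, was at 7.65 against 9.64 and 9.48. It is also a lymphocyte marker, and of 12 T and NK cell markers measured it was the only one at or above the array median in any of the 3 arrays, with Cd3e at 5.00, 4.76 and 5.06. P3h2, a collagen prolyl hydroxylase, was at 7.44 against 9.34 and 9.22, and Hnmt, which inactivates histamine, was at 5.96 against 7.34 and 7.38. Bhlhe41, a transcription factor of tissue macrophages, was at 5.52 against 6.83 and 6.57, and the plexin gene Plxna4 at 6.45 against 7.72 and 7.88. For these 5 genes the colitis F4/80hi array also stood above the reconstituted one, at 9.13, 9.56, 7.20, 7.80 and 8.40 in the order named.

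Mctp1, a calcium-binding membrane protein, was at 7.37 against 8.85 and 8.65 and was the lowest of the 8 arrays. Xylt1, which starts proteoglycan chains, was at 7.22 against 8.24 and 8.24, also the lowest, with 10.76 and 10.68 in splenic monocytes. Its call was lost under both other scalings, with a difference from resident of -0.987 after centring and -0.959 after quantile normalization. Iigp1, an interferon-induced GTPase that attacks vacuoles of intracellular microbes, was at 6.71 against 8.21 and 7.89. The rest of the interferon list did not follow. Of 19 genes past both filters, 1 was lower and 0 higher than both, with medians of 0.01 and 0.20. Mx1 stood at 7.16, 6.41 and 6.51. Outside that count, the predicted gene Gm4951, near Iigp1 in the genome, was lower as well, at 7.14 against 8.52 and 8.57. So was a probe set shared by Tgtp2 and Tgtp1, at 8.12 against 9.21 and 9.38. H2-Ob, which tempers peptide loading of class II molecules, was at 7.92 against 9.10 and 9.24, whereas H2-Ab1 was at 13.15, 13.14 and 13.23.

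Some of the lower genes are known from other cells of the colon. Retnlb, a goblet cell protein, was at 7.45 against 9.56 and 8.73, and Aspn, a matrix protein of fibroblasts, at 6.19 against 7.61 and 7.95. Of 11 stromal markers measured, 6 were at or above the median in the reconstituted array and 9 in each of the others, the median differences of those past both filters were -0.74 and -0.45, and Sparc, a matrix protein of stromal cells, was at 8.47, 9.32 and 9.52. C1qtnf1, a secreted relative of complement C1q, was at 5.14 against 6.20 and 6.91. Igha, the heavy chain gene of immunoglobulin A, was at 9.31 against 10.62 and 10.75, and the plasma cell gene Jchain at 10.83, 11.40 and 11.61. A kappa light-chain variable segment was lower as well, at 8.01 against 9.36 and 9.96, and is uncertain because of near-identical copies. The plasma cell markers that passed both filters, 6 of 8 measured, had median differences of -0.42 and 0.01. The part of other cells in these values was not tested. The predicted genes Gm4951 and 2210407C18Rik made up the 22.

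Several relatives among the 76 genes lie close together in the RefSeq annotation. Retnlg was higher and Retnlb lower, with 1 protein-coding gene between them on chromosome 16. H2-Eb2 was higher and H2-Ob lower, with 3 genes between them on chromosome 17, and Cd300lf was higher and Cd300lb lower, with 9 between them on chromosome 11, the second being lost under repeated quantile normalization. Treml4 and Trem1, with 1 gene between them, were both higher, as were the adjacent genes Mmp9 and Slc12a5 on chromosome 2. Gm4951 and Iigp1, with 2 genes between them on chromosome 18, were both lower.

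Several gene lists held no gene 2-fold from either array. These were the genes past both filters of the lists for lysosome (22), cell cycle (27), immediate early response (20), heat shock (12), pattern recognition (19), integrins (13), TGF-beta pathway (14), costimulation (12) and chemokine receptors (7). The proliferation gene Mki67 was at 9.96, 9.86 and 9.48. With 1 array a group, a difference under 2-fold says nothing of whether the groups were equal.

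The limit of 2-fold fell within a dense range of values. Just inside it on the higher side were Bub1b (1.00 and 1.27) and Cyyr1 (1.00 and 1.11), and just outside were Dip2c (1.16 and 0.98) and Pla2g5 (0.99 and 1.26). On the lower side Xylt1 (-1.02 and -1.01) and Cd300lb (-1.04 and -1.16) were inside, and Stat4 (-1.27 and -0.995) and Igf1 (-0.996 and -1.16) outside. In all, 13 genes had a smaller difference of 0.9 to 1 on the higher side and 10 on the lower, those just named included.

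Genes apart from the resident array only were mostly lower, 91 against 16 higher. At their head were enzymes of the exocrine pancreas: Cpb1 (4.79 against 8.52), Cpa1 (5.95 against 9.59), Ctrb1 (6.43 against 10.02), Rnase1 and Ctrl. The F4/80hi array was as low as the reconstituted one, with Cpb1 at 4.75. Of 14 acinar markers measured, 12 were 2-fold lower than resident and 0 lower than F4/80hi, and the list's median level was 8.24 in the resident array, 6.91 in the colitis F4/80hi and 7.58 in the colitis Ly6Chi array, against 5.76 and 5.55 in the reconstituted and F4/80hi arrays. How pancreatic RNA came into those libraries was not tested. Cd209f, a lectin of settled macrophages, was the only gene of another kind among the 6 largest. Fcrls, an Fc receptor-like gene of macrophages, was at 9.70 against 10.84 and 10.64. Of 17 epithelial markers measured, 3 were 2-fold lower than resident: Clca1, Slc26a3 (9.95 against 11.18) and Krt20 (9.02 against 10.15). Of the 91 genes, 56 were also lower than F4/80hi by some amount and 23 by at least 0.5.

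Of the 16 genes higher than resident only, 15 were also above the F4/80hi array and 13 by at least 0.5. Named by rule were Cabp4 (7.62 against 6.37 and 6.88), Parvg, an actin-linked parvin of blood cells (8.27 against 7.04 and 7.58), Lcn2, which binds bacterial iron carriers (6.24 against 5.07 and 5.34), Dip2c, Pianp and Lsp1. Lsp1, an actin-binding protein of leukocytes, was at 8.72 against 7.61 and 8.40, and monocytes of the spleen were at 11.87 and 11.80.

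The same class held 3 microRNA genes of a single cluster, which are shown because they lie together and were the only microRNA genes in it, a choice made after their values were seen. Mir23a was at 7.61 against 6.32 and 7.10, Mir27a at 7.97 against 6.24 and 7.06, and Mir24-2 at 6.34 against 5.24 and 5.59. The colitis F4/80hi array was as high as the reconstituted one, at 7.73, 8.17 and 6.33. The array reads precursor RNA, and mature microRNA was not measured. The 3 hairpins span 404 bases of chromosome 8 in RefSeq build GRCm38.p6. Their main mature strands are given with the seed, bases 2 to 8, in capitals.
miR-23a-3p (chr8:84208563-84208583, + strand): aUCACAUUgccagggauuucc
miR-27a-3p (chr8:84208727-84208747, + strand): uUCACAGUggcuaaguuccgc
miR-24-3p (chr8:84208875-84208896, + strand): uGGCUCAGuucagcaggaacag
The seeds of miR-23a-3p and miR-27a-3p share their first 5 bases, and that of miR-24-3p is unlike both.

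Genes apart from the F4/80hi array only were mostly higher, 105 against 35 lower. Xist led the higher and Eif2s3y, Uty and Kdm5d the lower genes, in step with the label of sex, which also sets the reconstituted and resident arrays apart from the F4/80hi array. Tldc2 (7.88 against 5.66 in F4/80hi), Cxcl13, the cytochrome gene Cyp2f2 (8.58 against 6.58), the apolipoprotein gene Apob (7.18 against 5.40) and Maob, which degrades amines (8.57 against 6.86), followed. The resident array was close to the reconstituted one for these genes, with Tldc2 at 7.49 and Cyp2f2 at 8.67. Many genes of the gut lining were in this class, such as Cldn8 (10.43 against 9.30 in F4/80hi) and Hsd11b2 (10.70 against 9.51). Others were Aoc1 (11.71 against 10.55), Slc13a2 (9.21 against 7.92) and Guca2b (9.02 against 7.86). Of the 17 epithelial markers measured, 0 were 2-fold higher than F4/80hi, while their median difference from it was 0.28. The part of epithelial RNA in this class was not tested. Of the 105 genes, 69 were also above resident by some amount and 31 by at least 0.5. Among the 35 lower genes, Retnla, a resistin-like gene of alternatively activated macrophages, was at 5.30 against 7.42 in F4/80hi and 5.42 in resident cells, and the non-coding Meg3 was at 5.07 against 6.90 and 5.99.

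The colitis F4/80hi array gave a further CX3CR1hi comparison that the choice of genes had not used, although the reconstituted array is shared. Against it, 1.65% of genes were 2-fold higher and 1.95% lower in the reconstituted array. Of the 54 higher genes, 36 were 2-fold higher than it and 52 were above it, the exceptions being Ighg3 (a difference of -2.26) and Retnlg (-0.19). Of the 22 lower genes 18 were 2-fold lower and 21 were below it. Since the same reconstituted values enter all 3 comparisons, these counts are a description and not further evidence. The reconstituted array was the highest of all 8 in 34 of the 54 higher genes. It was the lowest of all 8 in 5 of the 22 lower genes. The choice of genes favours both counts. Among the 10215 genes past the filter in both comparisons, the reconstituted array was the highest in 851 and the lowest in 1226.

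How the 76 genes lay in the other populations was read without the reconstituted array, as differences from the colitis F4/80hi array. In steady-state splenic monocytes 8.74% of all genes were 2-fold higher and 16.4% lower. Of the 54 higher genes 10 were 2-fold higher there and 14 lower, and of the 22 lower genes 3 were higher and 17 lower. In splenic monocytes from colitis, where 8.23% of genes were higher and 15.8% lower, the counts were 8 and 14 of the 54, and 3 and 16 of the 22. The genes higher in both splenic arrays were Cd300lf, Gcnt2, Ly6i, Pram1, S100a4, Tmem154, Trem1 and Treml4. Those lower in both splenic arrays included Adamdec1, Il1a, Mmp9, Mmp12 and Pla2g2d.

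In the colitis Ly6Clo array 7.27% of genes were higher and 11.8% lower than in the F4/80hi array of colitis. There 16 of the 54 higher genes were higher and 13 lower. The 16 were Adam23, Bub1b, Ccl17, Cd300lf, Cst7, Gcnt2, H2-Eb2, Il22ra2, Lrp8, Ly6i, Ocstamp, Pram1, S100a4, Slc7a11, Trem1 and Zfp366. Of the 22 lower genes 3 were higher and 14 lower. In the colitis Ly6Chi array, with 5.33% of genes higher and 9.07% lower, 14 of the 54 were higher and 11 lower, and of the 22, 3 were higher and 12 lower. Over all 54 higher genes the median difference from the colitis F4/80hi array was -0.38 and -0.37 in the splenic arrays of steady state and colitis, 0.06 in the Ly6Clo and 0.10 in the Ly6Chi array. Over the 37, 39, 44 and 45 of the 54 that passed the filter there, it was -0.78, -0.55, 0.29 and 0.11. Over all 22 lower genes it was -3.37, -2.97, -1.76 and -1.09 in the same order, with all 22 past the filter. Over all genes past the filter the medians lay between -0.05 and 0.10. The lower genes were chosen as bright in steady-state CX3CR1hi arrays and the higher ones were not, so these medians describe the chosen genes and are no comparison of them.

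**Figure D5:**
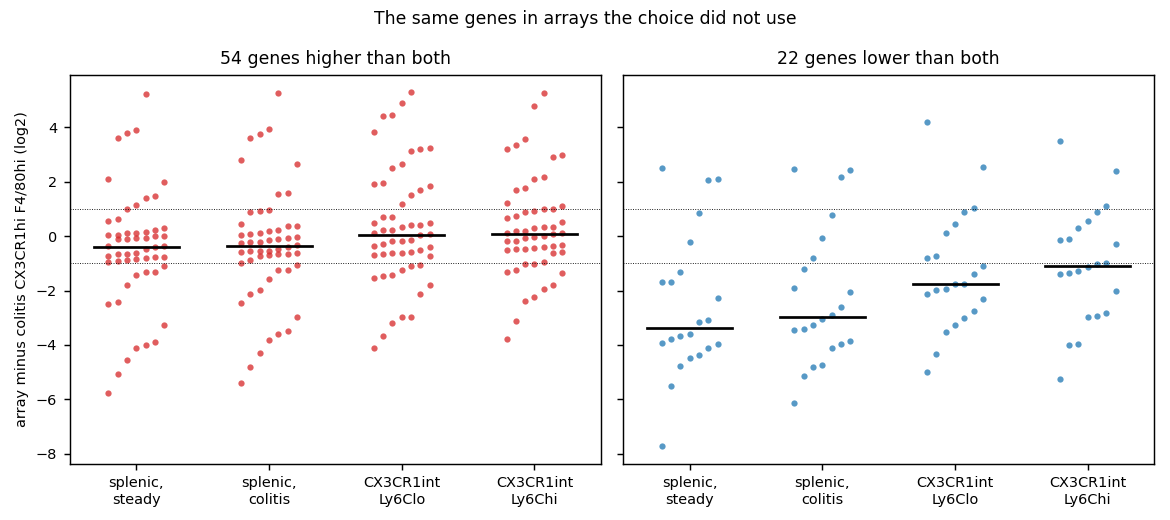
Each point is 1 of the 54 higher (left) or 22 lower genes (right), plotted as the log2 difference of a splenic or CX3CR1int array from the colitis F4/80hi array; bars are medians and dotted lines mark 2-fold. The higher genes spread to both sides with medians between -0.38 and 0.10, and the lower genes lie mostly below 0, with medians between -3.37 and -1.09.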

How the data were processed

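RNA of sorted mononuclear phagocytes was hybridised to mouse gene arrays, 1 array for each of 8 groups, and samples were grouped by their titles. The deposited values were log2 intensities per probe set after robust multi-array averaging (RMA); RMA and Partek are named in the submitters' processing notes, with no versions. Of 35399 probe sets, 21789 had 1 gene symbol in the platform annotation, 1621 several and 11989 none listed. A gene took its probe set with the highest mean over the 8 arrays. No further normalization was applied. A difference was counted at 2-fold or more where the brighter array was at or above its median (5.77 to 5.87). With 1 array a group, no test was run, and the number of arrays limits the precision.

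The rule for naming took the 20 largest differences on the higher side and all 22 genes on the lower side. It added the 6 largest in each class apart from only 1 array, up to 4 per gene list and the genes nearest the 2-fold limit. Further genes given with values, such as Krt8, C1qa and Mki67, were outside this rule. The genes and lists were chosen with earlier results of these data known. Whether RMA was run on all arrays together is not given in the sources used here; the deposited array medians lay close together. Promoter and microRNA sequences came from RefSeq (GRCm38.p6), to which 71 of the 76 genes matched. The counting was tested on simulated data. Python 3.11.15, pandas 2.3.3, numpy 2.4.6 and matplotlib 3.10.9 were used. Alternatives were the filter, the fold, the choice of probe set and the scaling, and 1, keeping only probe sets that list a RefSeq transcript of the gene, was chosen after seeing the data.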

Additional observations from a re-analysis of the deposited data

How the results depend on the processing

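No paired analysis was possible because each group had 1 array and no test was run. With a filter at the 75th percentile, the genes higher and lower than both arrays numbered 29 and 12, those apart from only 1 array 6 and 37 (higher and lower than resident) and 52 and 22 (higher and lower than F4/80hi), those higher in the resident array than in both others 27, and those lower in the F4/80hi array 32. Under that filter, in steady-state splenic monocytes 4 and 7 of the higher genes were higher and lower, and 1 and 8 of the lower genes; in the Ly6Clo array the counts were 6 and 7, and 5 of the lower genes were lower. With all 3 arrays at or above their medians, 27 genes were higher than both, 57 lower than resident only, 31 higher in the resident array, and 5 of the higher genes were higher in steady-state splenic monocytes and 5 in the Ly6Clo array. Centring on medians, and repeated quantile normalization, each gave 2 genes lower in the resident array, and the second gave 1 of the lower genes higher in splenic monocytes. At 1.5-fold the 6 classes held 152, 102, 55, 401, 512 and 112 genes, and at 4-fold 11, 2, 1, 14, 6 and 6. Over probe sets with 1 symbol or none, from which array controls were not separated, they held 83, 71, 77, 160, 234 and 262. With only probe sets that list a RefSeq transcript, an alternative chosen after seeing the data, Kcnma1 turned to -0.19 against resident, and 51 of the 54 and 20 of the 22 genes were kept. Centring kept 53 and 21, and quantile normalization 53 and 20. Dim genes limit what can be read.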

Other observations

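Some probe sets outside the counts of named genes also set the reconstituted array apart. Of 5830 probe sets past both filters with no symbol listed, 27 were higher and 47 lower than both steady-state arrays, and of 853 with several symbols, 2 were higher and 4 lower. Those with no symbol were not separated into transcripts and control probe sets of the array, so what they detect is not known here. An unlisted probe set read 8.98 in the reconstituted array against 5.03 and 5.23, and another 7.88 against 4.77 and 4.69. Like the bright probe set listed as Kcnma1, both were dim in all 7 other arrays. A probe set shared by the antibody light chain genes Iglv1, Iglc1 and Iglv2 read 7.08 against 10.16 and 10.48.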
